A study of Mus musculus with 2 samples.

Results

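The 10 chemokine genes Cxcl1, Cxcl2, Cxcl10, Cxcl12, Cxcl13, Cxcl16, Ccl2, Ccl3, Ccl6 and Ccl7 were examined in mesothelial cells sorted from mouse liver. They are 10 of the 18193 genes measured, were defined by gene symbol in the array annotation, and have 17 probe sets. They were picked with their signals and detection calls on these arrays already known, so that the values below are a description and not evidence for the choice. One array held RNA of adult cells, taken from livers of C57BL/6 mice at 8 weeks and sorted with an antibody to Mesothelin. The other held RNA of E12.5 cells, taken from C57BL/6 livers at embryonic day 12.5 and sorted with an antibody to PCLP1, the product of Podxl. Livers of both stages were dissociated with collagenase, no treatment or genetic change is named in the labels, and the labels do not say how many animals were pooled. Each group has a single array, so no difference has a replicate check and no test was run. Age, antibody and array differ together and cannot be told apart. Signals are linear intensities, the adult array scaled to the median of the E12.5 array, and a probe set counts as detected where its call was present.

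Chemokines are small secreted proteins that bind G protein-coupled receptors and direct the movement of leukocytes and of progenitor cells. CXC chemokines such as Cxcl1 and Cxcl2 attract neutrophils, the interferon-induced Cxcl10 attracts T cells and NK cells, and CC chemokines such as Ccl2 and Ccl3 attract monocytes and macrophages. Cxcl12 and Cxcl13 serve mostly homeostatic traffic, of blood progenitors and of B cells. Mesothelium, the cell sheet that covers the liver and lines the body cavities, is known as a source of chemokines when the serosa is inflamed.

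Of the 10 chemokines, 9 were detected in adult cells and 6 in E12.5 cells. Ccl3, Ccl6 and Cxcl16 were detected on the adult array alone, none on the E12.5 array alone, and Ccl7 on neither. Over all probe sets other than controls, 52.2% were present in adult and 51.9% at E12.5. Of the 12801 genes detected on at least 1 array, 10154 were detected on both. At least 2-fold higher in adult were 6 of the 9 (Cxcl1, Cxcl2, Cxcl13, Cxcl16, Ccl3 and Ccl6), against a background of 16.9% of the 12801 genes detected on at least 1 array. None was at least 2-fold lower in adult (background 29.1%), and Cxcl10, Cxcl12 and Ccl2 lay within 2-fold. Without scaling, and also with probe sets averaged, the 6 became 5 and Cxcl12 was at least 2-fold lower in adult. Lower bounds entered at their bound, the median log2 difference (adult minus E12.5) of the 9 was 2.01, beside -0.34 over all detected genes. Of the 6 present at both stages, 3 passed 2-fold towards adult, against 13.2% of 10154 such genes, and none towards E12.5, against 27.1%. Their median was 0.85, beside -0.37. Nothing was read from these shares, because the arrays that gave them also served to pick the genes. Nearest to the 2-fold line stood Cxcl13 inside it (2.39-fold) and Cxcl12 outside it (1.70-fold).

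**Figure D1:**
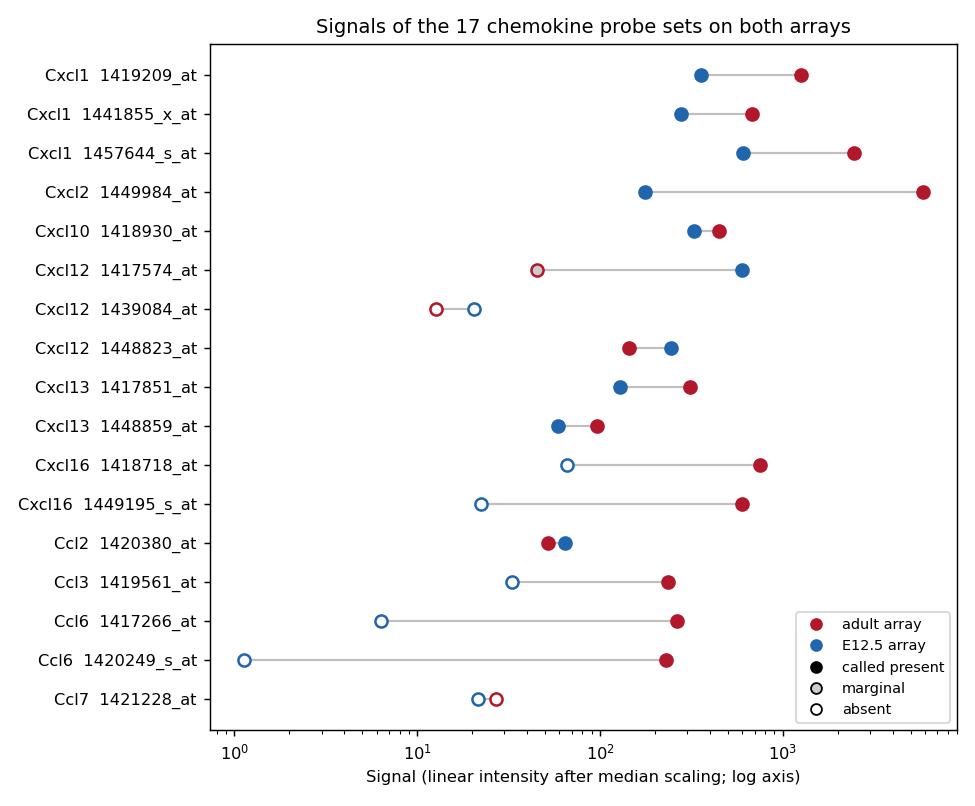
Signal of each of the 17 chemokine probe sets (log axis) on the adult array (red) and the E12.5 array (blue), with filled points called present, grey marginal and open absent. All 3 probe sets of Cxcl1 and the probe set of Cxcl2 were present on both arrays and brighter in adult, those of Cxcl12 were brighter at E12.5, and those of Ccl6, Ccl3 and Cxcl16 were absent at E12.5.

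The difference between the arrays was wide for Cxcl2 and smaller for Cxcl1. Both are neutrophil attractants that act through the receptor Cxcr2, and in the RefSeq annotation of GRCm38.p6 they are next to each other on chromosome 5 with no coding gene between them. Cxcl2 (probe set 1449984_at) had a signal of 5878 in adult cells and 177 in E12.5 cells. It was detected at both stages and was 33.2-fold higher in adult. Cxcl1 was measured by 3 probe sets, all called present on both arrays. Its probe set 1457644_s_at had 2438 in adult and 603 at E12.5, a 4.04-fold difference. Probe set 1419209_at had 1265 and 357 (adult and E12.5, 3.55-fold), and 1441855_x_at had 679 and 277 (2.45-fold). The 3 probe sets of Cxcl1 thus all lay towards adult, and each by less than Cxcl2. By suffix, 1457644_s_at and 1441855_x_at may also match other transcripts.

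The sequences before both start sites hold the same NF-kB match, and they are shown because these neighbours were higher in adult together. NF-kB is the transcription factor that inflammatory cytokines and Toll-like receptors activate, and it is known to drive both genes. Promoter windows came from RefSeq (GRCm38.p6), which held 7 of the 10 genes, and 250 bases before the start were searched on both strands. The stretches printed are the 150 bases before the start, 5′ to 3′ on the gene's strand, with matches to the NF-kB consensus in capitals.
Cxcl1 (chr5:90891095-90891244, plus strand): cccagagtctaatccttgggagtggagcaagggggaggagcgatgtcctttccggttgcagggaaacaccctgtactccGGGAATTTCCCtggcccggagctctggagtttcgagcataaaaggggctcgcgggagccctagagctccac
Cxcl2 (chr5:90903749-90903898, plus strand): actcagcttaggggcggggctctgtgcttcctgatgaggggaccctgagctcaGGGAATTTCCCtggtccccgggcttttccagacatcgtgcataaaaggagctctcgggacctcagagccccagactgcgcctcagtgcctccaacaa
In both, the capitals are a match on the plus strand and one on the minus strand that overlap by all but 1 base. It begins 71 bases before the start in Cxcl1 and 97 in Cxcl2. The shared letters GGGAATTTCC stood in 28 of 32851 promoter windows of the same length (0.0852%), a motif taken from the sequence of Cxcl1 after it had been read. The NF-kB consensus as a whole stood in 7.25% of windows. Of the 7 chemokines with a window, Cxcl1, Cxcl2 and Cxcl10 held it. These letters are a description of the windows, and binding was not measured.

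Cxcl10 was detected at both stages with similar signals. This ligand of Cxcr3 is induced by interferon and by NF-kB. Its probe set 1418930_at had 446 in adult cells and 327 in E12.5 cells, a ratio of 1.36 whose direction turned without scaling (log2 difference 0.45, and -0.11 without scaling). In the deposited table this probe set carries 2 gene names, Cxcl10 and a second locus. The window of Cxcl10 is shown from 220 to 61 bases before the start because it holds matches of 3 kinds, in capitals.
Cxcl10 (chr5:92348950-92349109, minus strand): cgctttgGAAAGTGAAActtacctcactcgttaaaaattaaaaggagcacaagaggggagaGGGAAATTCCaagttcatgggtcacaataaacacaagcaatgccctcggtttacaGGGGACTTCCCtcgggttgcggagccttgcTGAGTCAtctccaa
From left to right the capitals are a pair of GAAA repeats with 2 bases between them, as in interferon response elements (2.98% of windows), NF-kB matches that begin 159 and 104 bases before the start, and an AP-1 match TGANTCA (6.75% of windows). Both strands were searched, and the NF-kB match nearer the start overlaps further matches shifted by 1 base. Cxcl10 was the only one of the 7 windows with the GAAA pair or TGANTCA. The 3 genes with an NF-kB match were unlike in their log2 differences (2.01 for Cxcl1, 5.05 for Cxcl2 and 0.45 for Cxcl10).

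Cxcl12 had lower adult signals in each of its 3 probe sets. It attracts and retains blood progenitors through Cxcr4, is also bound and cleared by Ackr3, and is made by stromal cells of fetal liver and bone marrow. Probe set 1417574_at had 45.4 in adult, with a marginal call, and 599 at E12.5, at least 13.2-fold lower in adult. Probe set 1448823_at had 145 and 246 (adult and E12.5), both present, 1.70-fold lower in adult. The third, 1439084_at, was absent on both arrays (12.6 and 20.5). The probe sets share a direction but differ in size, so that the gene lies within 2-fold by 1448823_at, which represents it here, and beyond 2-fold with the detected probe sets averaged (log2 difference -2.24). Without scaling it was -1.32. Cxcl12 lies on chromosome 6, with no other chemokine of the lists there. The 150 bases before its start, which held no match to the NF-kB consensus, the GAAA pair or TGANTCA, are printed in the same way for contrast.
Cxcl12 (chr6:117168385-117168534, plus strand): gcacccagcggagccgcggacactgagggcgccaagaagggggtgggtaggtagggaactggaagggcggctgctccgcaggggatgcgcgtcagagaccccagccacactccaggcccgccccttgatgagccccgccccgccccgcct

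Cxcl13, the B cell attractant that binds Cxcr5 and that serosal tissues of the mouse produce, was detected at both stages. Probe set 1417851_at had 309 in adult and 129 at E12.5, 2.39-fold higher in adult. Probe set 1448859_at had 95.9 and 59.3 (adult and E12.5), 1.62-fold higher. Both lay towards adult, on either side of 2-fold, and the gene fell within 2-fold without scaling (log2 difference 0.70) and with its probe sets averaged (0.97).

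Cxcl16, a chemokine anchored in the membrane that binds Cxcr6 and is shed by metalloproteases, was detected in adult cells alone. Probe set 1418718_at had 752 in adult and 65.8 at E12.5, and 1449195_s_at had 596 and 22.2. Both were absent at E12.5, and the adult signal was at least 11.4-fold and at least 26.8-fold higher. Cxcl16 lies on chromosome 11, apart from the CC clusters on the same chromosome.

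The CC chemokines split between undetected or faint genes and genes detected in adult alone. Ccl2 and Ccl7, monocyte attractants that act through Ccr2, are neighbours on chromosome 11. Ccl2 (1420380_at) had 51.9 in adult and 64.4 at E12.5, both called present, a 1.24-fold difference whose direction turned when detected genes were centred (log2 difference -0.31, and 0.063 with that centring). Ccl7 (1421228_at) had 26.9 in adult and 21.6 at E12.5, both called absent, so that no fold is given. The other chemokines next to them in that cluster, Ccl11, Ccl12, Ccl8 and Ccl1, were likewise not detected on either array.

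Ccl6 and Ccl3 lie next to each other on chromosome 11, in a second cluster, 25 coding genes from the first. Ccl3 attracts macrophages and lymphocytes through receptors that include Ccr1, and Ccl6 is a CC chemokine known from myeloid cells of rodents. Ccl6 had 263 in adult and 6.34 at E12.5 (1417266_at), and 229 and 1.12 (1420249_s_at). The calls were present in adult and absent at E12.5, and the adult signals were at least 41.5-fold and at least 50.2-fold higher. With a floor of 32 on low signals the log2 difference of Ccl6 was 3.04 in place of 5.38, and with a pseudocount of 16 it was smaller too (plot of differences under other settings). Ccl3 (1419561_at) had 235 in adult and 32.9 at E12.5, where it was absent, and was at least 7.13-fold higher in adult. Ccl9, which stands beside Ccl6 in this cluster and is no member, was at least 5.73-fold higher in adult (106 and 18.6 at E12.5). Ccl4, beside Ccl3, had 113 in adult with a marginal call and 69.6 at E12.5 with an absent call.

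**Figure D2:**
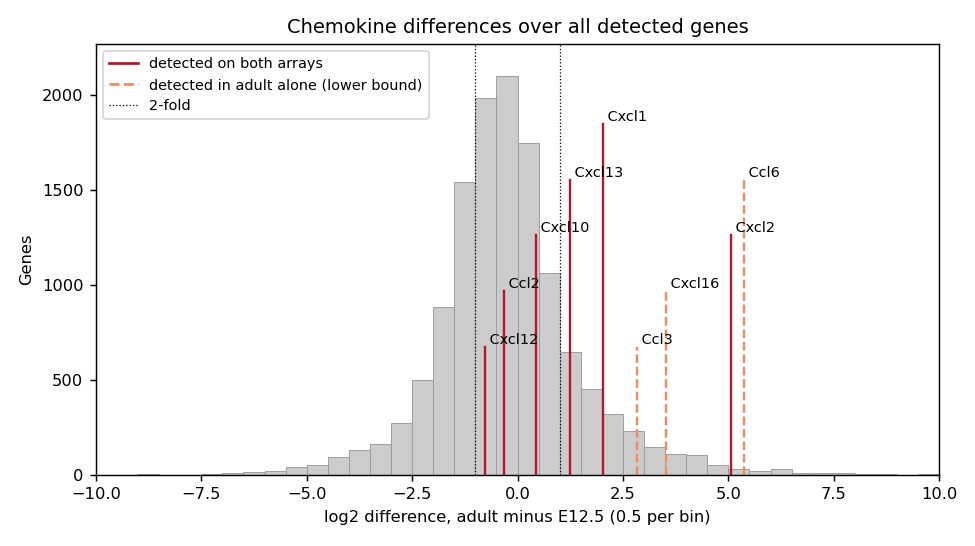
Histogram of the log2 difference (adult minus E12.5, x axis) over the 12801 genes detected on at least 1 array (y axis, genes per bin of 0.5), with a vertical line for each of the 9 detected chemokines, solid where detected on both arrays and dashed where the value is a lower bound. The height of a line has no meaning. Line positions run from -0.76 (Cxcl12) to 5.38 (Ccl6), around an all-gene median of -0.34.

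The genes whose pair of signals came nearest to those of Cxcl2, the member with the highest adult signal, were Prr15, Lgals3 and Tapbp, at distances of 0.36, 0.38 and 0.43 in log2 units over the 2 arrays. For Cxcl1, the member with the highest E12.5 signal, they were Trp53inp1 (0.10), Ehd3 (0.14) and Dlc1 (0.15). Lgals3 encodes galectin-3, a secreted lectin, and Tapbp a chaperone of MHC class I loading.

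Of 28 other chemokines listed, 25 had a probe set named for them alone, and 9 of these were detected on at least 1 array. Past 2-fold towards adult were 2 of the 9 (Cxcl9 and Ccl9), at least 2-fold lower in adult were 2, and 5 passed 2-fold in neither direction, with a median log2 difference of 0.10. The background for this and the lists below is 16.9% of all detected genes higher in adult and 29.1% lower. With no detection filter the 2 higher in adult became 7. Cxcl9, a Cxcr3 ligand induced by interferon gamma that lies 1 coding gene away from Cxcl10, had 276 in adult and 2.996 at E12.5 (absent). With the E12.5 side raised to 4.57, the lowest detected signal of that array, it was at least 60.5-fold higher in adult. Pf4 had 401 in adult and 9256 at E12.5, 23.1-fold lower in adult. Ppbp had 216 and 2652 (adult and E12.5), 12.3-fold lower in adult. Pf4 and Ppbp are chemokines of platelets and megakaryocytes, and they belong to the chromosome 5 cluster of Cxcl1 and Cxcl2, where Cxcl3, Cxcl5 and Cxcl15 were not detected. Neighbours in that cluster thus differed in direction. Markers of megakaryocytes and platelets were also lower in adult, in all 3 measured (summed signals of 992 in adult and 3236 at E12.5), and their part in the values of Pf4 and Ppbp was not tested. Of the other 5, Ccl27a (186 in adult and 156 at E12.5) and Cx3cl1 (41.5 and 38.6) were present on both arrays and lay within 2-fold. Ccl22 (19.1 in adult and 18.0 at E12.5) and Ccl28 (39.5 and 30.5) were present in adult and absent at E12.5, and Ccl25 (42.0 and 56.1) was absent in adult and present at E12.5. For these 3 the fold is a lower bound under 2, which does not place them within 2-fold.

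Receptors were mostly faint or not detected. Of 23 listed 21 had a probe set named for them alone, and 10 of these were detected on at least 1 array. Of the 10, 3 were past 2-fold towards adult, none towards E12.5 and 7 did neither. The median was 0.54 when the 2 without a fold are set to 0. The 3 became 5 with detected genes centred, and 1 when probe sets ending in _a_at, _s_at or _x_at were left out. Among those left out were the probe sets of Ackr3 (_s_at) and Ccrl2 (_a_at). Ackr3, which clears Cxcl12 without G protein signalling, had 4538 in adult and 2141 at E12.5, 2.12-fold higher in adult. Ccrl2, a receptor-like protein that presents chemerin, had 585 in adult and 55.6 at E12.5 (marginal), at least 10.5-fold higher in adult. Ackr2, which clears inflammatory CC chemokines, had 79.6 and 25.8 (adult and E12.5, the second absent), at least 3.09-fold higher in adult. Cxcr3, the receptor of Cxcl10, had 72.4 in adult and 53.3 at E12.5, both present. Ackr1 had 151 and 137, and Ackr4 18.4 and 20.9, also with present calls on both arrays. Ccr6 (58.9 in adult and 38.1 at E12.5) and Ccr9 (15.7 and 8.85) were present in adult alone. Ccr2 (33.5 in adult and 15.5 at E12.5) and Cx3cr1 (35.7 and 23.2) were present at E12.5 alone although the absent adult signals were higher, and no fold is given for them. Named here because they bind members, Cxcr2 (3.71 in adult and 10.0 at E12.5), Cxcr4 (11.5 and 8.39), Cxcr5 (24.7 and 14.9) and Cxcr6 and Ccr1 were absent on both arrays. Of the ligand and receptor pairs of Cxcl12, the clearing receptor was thus detected on both arrays and the signalling receptor on neither.

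**Figure D3:**
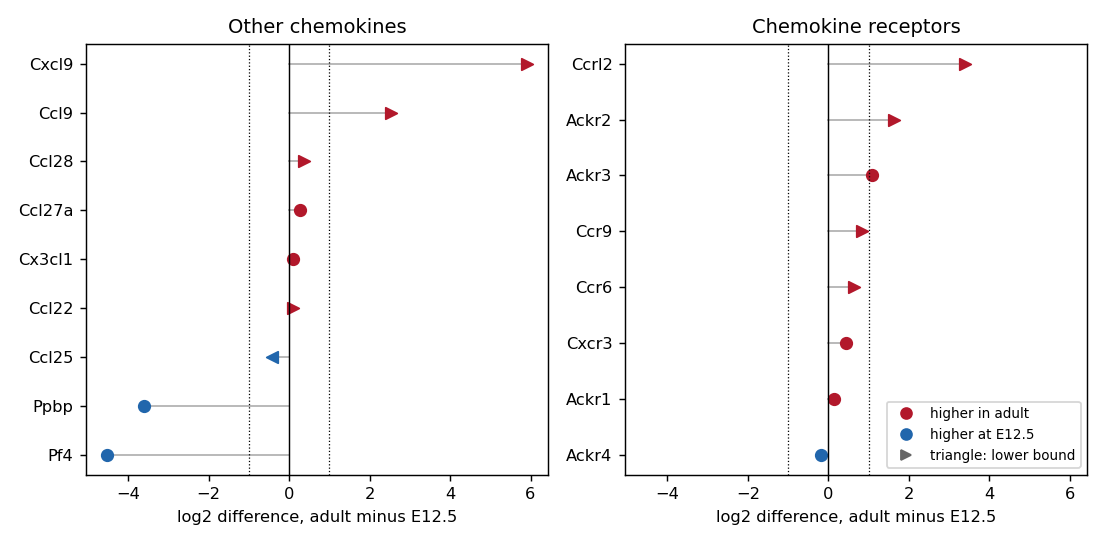
log2 difference (adult minus E12.5, x axis) of the detected chemokines outside the member list (left panel) and of the detected chemokine receptors for which a fold could be given (right panel), with triangles for lower bounds and dotted lines at 2-fold. Pf4 and Ppbp stood at -4.53 and -3.62, Cxcl9 at 5.92 and Ccrl2 at 3.39.

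Genes of the NF-kB, interleukin-1, TNF and Toll-like receptor pathways, through which Cxcl1, Cxcl2 and Ccl2 are induced, lay mostly towards adult. Of 26 listed, 24 had a probe set and 23 were detected. Of these, 13 were at least 2-fold higher in adult (background 16.9%), 1 lower (Il1rap, 3.66-fold, background 29.1%) and 9 neither. Their median was 1.39. The 1 lower became 2 without scaling and 0 with probe sets averaged. The TNF receptor Tnfrsf1b had 1448 in adult and 51.5 at E12.5 (marginal), at least 28.1-fold higher in adult. The cytokine gene Il1a (at least 9.88-fold), the receptor of double-stranded RNA Tlr3 (at least 8.83-fold), the NF-kB cofactor Bcl3 (6.52-fold) and the inhibitor Nfkbie (5.53-fold) followed, and Tnf was not detected on either array. Interferon receptor and STAT pathway genes, upstream of Cxcl10, passed 2-fold towards adult in 5 of 10 detected (median 1.31) and towards E12.5 in none. The 5 were Irf7 (19.1-fold), Stat2 (at least 6.59-fold), Ifnar2 (4.68-fold), Irf9 (3.52-fold) and Irf1 (3.48-fold). They became 1 when probe sets ending in _a_at, _s_at or _x_at were left out. The probe sets of Irf7, Ifnar2, Irf9 and Irf1 end in _a_at. The part of macrophages and other cells in the values of these pathway genes was not tested.

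Factors that set the stability of chemokine mRNAs did not share a direction. Of 7 detected, 3 were at least 2-fold higher in adult, 3 lower and 1 neither (median 0.10). The mRNA decay factors Zfp36 (5775 in adult and 1689 at E12.5, 3.42-fold), Zfp36l2 (3.61-fold) and Zc3h12a (at least 7.37-fold), an RNase known to cut inflammatory mRNAs, were higher in adult. Hnrnpd and Khsrp, which also bind such mRNAs and are known to promote their decay, and Elavl1, known to stabilise them, were lower in adult. Hnrnpd had 543 in adult and 3617 at E12.5 (6.65-fold), and the difference was 3.41-fold for Khsrp and 2.87-fold for Elavl1. Zfp36l1, of the same family as Zfp36, had 3628 in adult and 3376 at E12.5.

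Of 14 detected proteases and heparan sulphate genes that cut or hold chemokines, 4 were at least 2-fold higher in adult, 5 lower and 5 neither (median -0.44), and the 5 lower became 3 with probe sets averaged. Dpp4, a peptidase that truncates Cxcl12 and Cxcl10, had 2753 in adult and 264 at E12.5, 10.4-fold higher in adult. The syndecan Sdc4 was 5.61-fold higher in adult, and Mmp2 (14.4-fold), Sdc1 (6.09-fold) and the glypican Gpc1 (5.72-fold) were lower. The metalloproteases that shed Cxcl16 had signals within 2-fold, with 1361 in adult and 2043 at E12.5 for Adam10, and 477 and 487 for Adam17.

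Immediate early and stress-response genes, heat shock genes included, are known to be induced by tissue digestion, and most of those listed lay towards adult, as Cxcl1 and Cxcl2 did. All 15 were present at both stages. Of them, 11 were at least 2-fold higher in adult (background 16.9%) and none lower (background 29.1%), with a median of 1.19. The 11 became 3 without scaling. The one with a lower adult signal was Ier2 (4192 in adult and 5551 at E12.5). Klf2 (7.63-fold), Socs3 (3.52-fold), Klf4 (3.44-fold), Ier3 (2.91-fold) and Dusp1 (2.68-fold) stood furthest out. The part of this response in the chemokine values was not tested.

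The sorting antigens stood higher on the array whose label names them. Msln had 11835 in adult and 48.5 at E12.5, Podxl had 1807 and 6069, and all 10 listed mesothelial markers were detected on both arrays. Of these 10, 5 were at least 2-fold higher in adult, 1 lower and 4 neither (median 1.36). They summed to 76287 in adult and 32757 at E12.5, and the part of mesothelial content in the chemokine values was not tested. Markers of other cells differed as well. All 14 macrophage and Kupffer cell markers were detected and at least 2-fold higher in adult, with summed signals of 28907 in adult and 913 at E12.5 and Csf1r (8606 and 326), Cd5l (4835 and 48.4) and Clec4f (4054 and 5.14) among them. Ccl3, Ccl6, Ccl9 and Cxcl16, genes that macrophages also express, lay in the same direction, and so did Cxcl1, Cxcl2, Cxcl13 and Cxcl9. The part of macrophages in the values of any of these chemokines was not tested. Endothelial markers summed to 14938 in adult and 1788 at E12.5, of which Clec4g alone made up 6765 and 91.9. Of the 9 detected, 4 were at least 2-fold higher in adult, 0 were lower and 5 lay within 2-fold. Neutrophil markers ran the other way, with 5 of 6 detected at least 2-fold lower in adult and sums of 236 and 1951. Stellate cell and fibroblast markers, whose cell types are known sources of Cxcl12, were at least 2-fold lower in adult in 5 of 9, at least 2-fold higher in 2 and neither in 2. Their sums were 24031 in adult and 11377 at E12.5, of which Dcn alone made up 18789 and 1493, and their part in the values of Cxcl12 was not tested. Hepatoblast markers (2578 in adult and 28451 at E12.5) and erythroid markers (39.9 and 1756) were lower in adult, 2 of 10 lymphocyte markers and 1 of 5 dendritic cell markers were detected, and no marker's signal stood at 0 on either array. In sorted bulk RNA, fewer cells of a type and less RNA per cell cannot be told apart. For Gapdh, the 3′ control probe set was 6.81 times the 5′ one in adult and 2.07 times at E12.5. For Actb it was 3.47 times in adult and 1.93 times at E12.5. The source of this difference between the arrays, and its part in these values, was not tested.

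**Figure D4:**
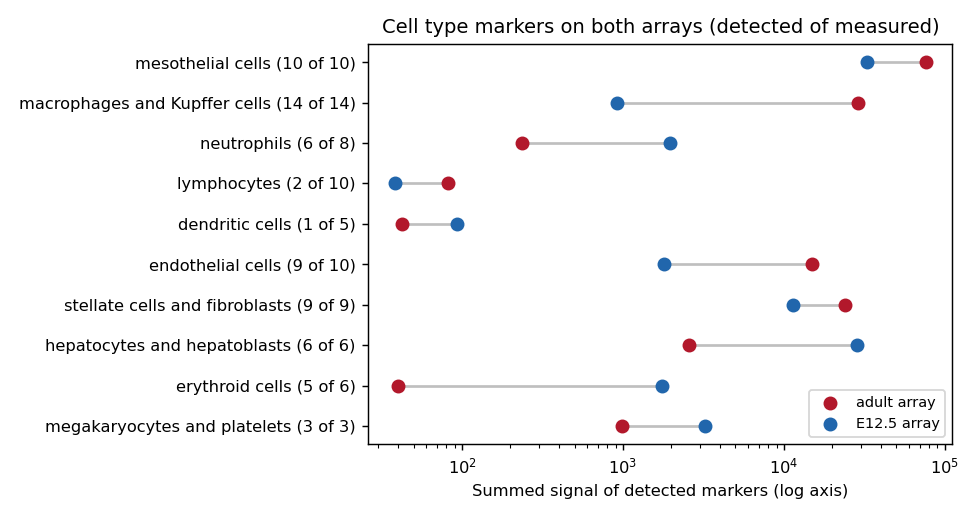
Summed signal of the detected markers of each cell type (log axis) on the adult array (red) and the E12.5 array (blue), with the number detected of those measured after each name. Macrophage and Kupffer cell markers summed to 28907 in adult and 913 at E12.5, and neutrophil markers to 236 and 1951.

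Leaving out the scaling, centring detected genes and setting trimmed means equal each moved the members' differences by a common amount. Quantile normalization moved them by unequal amounts. Of all 2-fold differences 36.8% lay towards adult in the median scaling, beside 19.8% without scaling, 54.2% with detected genes centred and 51.0% with trimmed means set equal. In each of the 11 settings tried, Cxcl2, Ccl6, Cxcl16, Ccl3 and Cxcl1 were at least 2-fold higher in adult, and Cxcl12 was lower in adult. Some of these settings add no check. The value table, marginal calls counted as detected and no detection filter left the members' differences as they were. The log2 differences ranged from 4.50 to 5.43 for Cxcl2, from 3.04 to 5.75 for Ccl6, from 2.96 to 4.13 for Cxcl16, from 2.28 to 3.21 for Ccl3 and from 1.46 to 2.39 for Cxcl1. That of Cxcl12 ranged from -2.24 to -0.39.

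**Figure D5:**
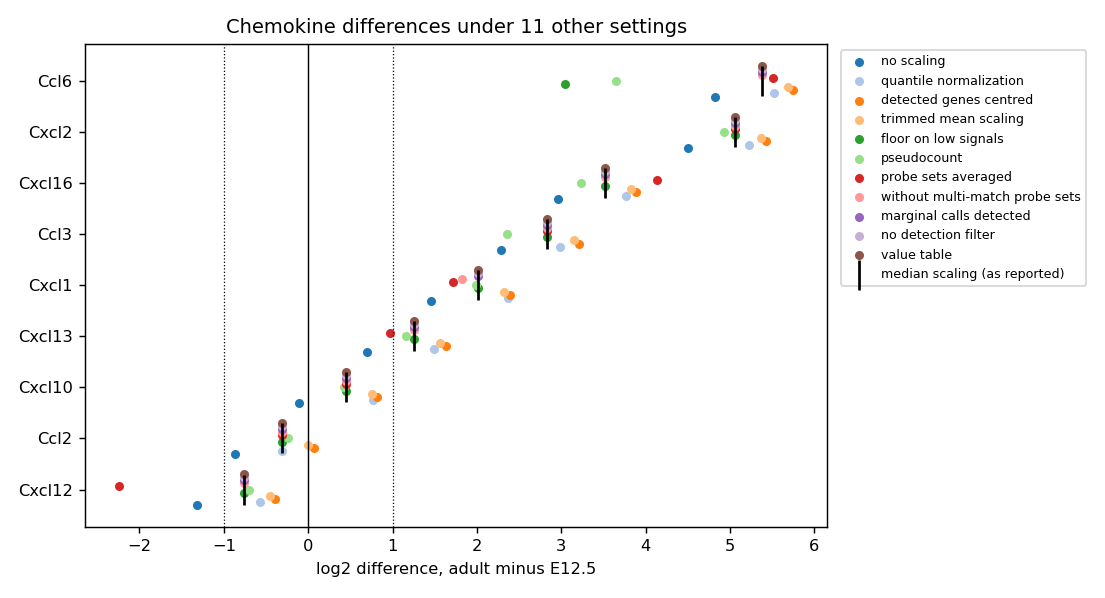
log2 difference (adult minus E12.5, x axis) of the 9 detected chemokines as reported (black bar) and under 11 other settings (coloured points), with dotted lines at 2-fold. Cxcl2, Ccl6, Cxcl16, Ccl3 and Cxcl1 stay right of 1 in all of them, while Cxcl10 and Ccl2 have points on both sides of 0.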

How the data were processed

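RNA of 2 sorted cell samples, 10 ng each, was amplified in 2 cycles and hybridised to 1 Affymetrix array per group, per the labels' protocols. For 45101 probe sets the deposited table holds a linear intensity, headed raw, and a detection call. The submitters' processing notes list Affymetrix Expression Console. The sources used here do not give its summarisation algorithm. The ratio the authors deposited equals the adult raw signal over 0.680 times the E12.5 raw signal, the constant being the ratio of array medians, with a floor for 78 probe sets. The deposited value table repeats the raw intensities.

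Adult signals were divided by that constant. Probe sets were named from the platform annotation, with symbols updated by Entrez number from RefSeq (GRCm38.p6): 34945 had 1 symbol, 932 several and 9160 none. Each gene takes the brightest probe set by mean log2 signal, out of those with 1 symbol and a present call. If present on a single array, it gives a lower bound, with the dim side raised to the lowest detected signal there (5.84 in adult, 4.57 at E12.5). That signal is the lowest of the whole array and not the limit of each probe set. The words at least therefore hold under this rule alone, and a higher floor gives smaller folds for the dimmest genes, as for Ccl6. Counts are past 2-fold, with no test and no p-value, since each group has 1 array, which also limits precision. The chemokines and the 17 other gene lists were chosen with earlier results of these data known. The text names all chemokines with their probe sets, the sorting antigens, detected chemokines and receptors outside the list, and up to 5 genes with the largest difference per pathway list. Of the cell type lists it names the macrophage markers with the highest signals, and Clec4g and Dcn for their share of a sum. For likeness it names the 3 genes nearest Cxcl2 and Cxcl1, clone-like symbols skipped. Genes behind counts of 5 or fewer, neighbours on the chromosome, undetected receptors, Adam10 and Adam17 were named after their values were seen. Other scalings, floors, filters and probe set rules, 11 alternatives in all, were run. Calculations used Python 3.11.15, numpy 2.4.6 and pandas 2.3.3, and the functions were tested on simulated data.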

Additional observations from a re-analysis of the deposited data

How the results depend on the processing

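No paired analysis was possible because each group has 1 array. Against the median scaling, the median log2 difference of all detected genes shifted by -0.56 without scaling, 0.24 after quantile normalization, 0.37 with detected genes centred and 0.31 with trimmed means set equal. The direction turned for Cxcl10 without scaling (-0.11) and for Ccl2 with detected genes centred (0.063). Cxcl13 fell within 2-fold without scaling (0.70) and with probe sets averaged (0.97), and Cxcl12 passed it in both (-1.32 and -2.24). The number of members at least 2-fold lower in adult was 1 in place of 0 in these 2 settings. Without scaling, 2 NF-kB pathway genes were at least 2-fold lower in adult in place of 1, and 3 immediate early genes at least 2-fold higher in place of 11. With probe sets averaged, these counts were 0 for NF-kB pathway genes lower in adult, and 3 in place of 5 for proteases and heparan sulphate genes lower in adult. With no detection filter, 7 other chemokines in place of 2 were at least 2-fold higher in adult and 1 receptor in place of 0 was lower. Receptors higher in adult numbered 5 in place of 3 with detected genes centred. Leaving out probe sets ending in _a_at, _s_at or _x_at they numbered 1, and interferon pathway genes 1 in place of 5, where fewer genes were measured. Of 176 counts under an alternative, the 165 not named here stayed within 1.5 times the value reported. The value table repeats the raw intensities, so it could change no direction or side of 2-fold among the members. Low signals, such as those of Ccl2, Ccl7 and most receptors, lie near the limit of detection, so that a missing call does not show a missing transcript.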
